A study of Mus musculus with 10 samples.

Results

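Runx2, Sp7 and Dlx5 encode transcription factors of the osteoblast, the cell that makes bone, and Alpl, Phex, Bglap, Spp1, Ibsp and Dmp1 encode enzymes and proteins of the mineralized matrix. These 9 genes were chosen by name, with earlier results of these data known. All 9 were present among the 41743 gene names of the count and RPKM tables. They were compared over 10 poly-A RNA libraries of K7M2, a mouse osteosarcoma cell line labelled as of osteoblast type, and of lines derived from it. Parental K7M2 cells carry wild-type ezrin. The 4 derived lines were made ezrin -/- by CRISPR/Cas9 and each then received, stably, 1 vector: empty (labelled as mock transfected), or carrying the wild-type, T567A or T567D cDNA of ezrin. The threonine changed in both mutants is a site whose phosphorylation favours the open form of ezrin, which links actin to the membrane. T567A cannot carry the phosphate and T567D mimics it. All lines grew in the same serum-containing medium with no treatment, per the labels. Each of the 5 lines gave 2 libraries. A construct was carried by a single stable line, so that construct and line cannot be told apart. The titles of the derived lines share a tag that may name 1 edited clone. Nothing in the labels ties a line's 2 libraries to separate cultures. The p-values therefore rest on the spread between libraries, which may be technical.

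Osteoblasts form from mesenchymal progenitors under RUNX2, which acts upstream of SP7 (osterix), and DLX5 is a homeobox factor of the BMP response that can raise both. Maturing osteoblasts then express tissue-nonspecific alkaline phosphatase (Alpl), osteopontin (Spp1), bone sialoprotein (Ibsp) and, late, osteocalcin (Bglap), and osteocytes express Dmp1 and Phex. Osteopontin, bone sialoprotein and DMP1 belong to the SIBLING family of acidic phosphoproteins, whose genes lie side by side in the genome.

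The T567A libraries were the shallowest and the deepest, with 14679424 counts in replicate 2 and 18230763 in replicate 3. They also had the highest share of mitochondrially encoded RNA, 1.9% and 1.44%, against 0.844% to 1.33% in the other 8 libraries. The 2 libraries of each line differed by more than counting noise, with a chi-square per degree of freedom of 2.44 to 8.45, highest in T567A. Ezr, the edited gene, was at 72.4 and 72.9 CPM (the count relative to the TMM-adjusted library total) in the empty-vector line and at 164.1 to 252.8 CPM in the other 8 libraries. The empty vector carries no ezrin cDNA, so Ezr mRNA remained in that line, below the 164.1 and 165.7 CPM of the parental libraries. Whether this mRNA yields ezrin protein was not tested. In the lines given a cDNA, endogenous and vector-borne Ezr mRNA are counted together. The Ezr counts thus check the labels only in part.

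The RNA held some osteoblast markers and nearly lacked others. Of the 12 osteoblast markers, which include the 9 genes, 7 passed the filter on low counts. Sp7, Dlx5, Bglap, Ibsp and Dmp1 did not. General fibroblast markers were not examined, so the markers do not set osteoblasts apart from fibroblasts. Type I collagen and osteonectin were abundant, with Col1a1 at 247 to 1830 CPM, Col1a2 at 2890 to 3530 CPM and Sparc at 905 to 1770 CPM over the 10 libraries. Markers of other cell types were mostly at or near 0. The 8 chondrocyte markers summed to 0.583 to 4.95 CPM with Acan at 0 counts, the 7 adipocyte markers to 0.891 to 7.8 CPM with Adipoq at 0, the 5 endothelial markers to 1.81 to 3.04 CPM and the 5 epithelial markers to 0.174 to 1.05 CPM with Epcam at 0. The 4 tendon markers summed to 9.92 to 22.5 CPM, with line means of 6.32 to 14.4 CPM for Mkx and 3.2 to 7.27 for Scx. These were levels like those of Alpl and Phex, whose line means were 1.98 to 12.9 and 4.97 to 15.6 CPM. The 7 myeloid and osteoclast markers summed to 1190 to 1680 CPM, nearly all of it Csf1r, the receptor for CSF1, while the myeloid gene Adgre1 was at 0 counts in each library. The part of any such cells in the results below was not tested. In bulk RNA fewer cells of a type and less RNA per cell cannot be told apart.

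The promoters of Bglap and Spp1 are shown because both hold the same 6-base motif while Bglap had at most 5 counts in a library and Spp1 had the most counts of the 9 genes. The motif ACCACA, searched on both strands (TGTGGT on the other), is the core of the sequence that RUNX proteins bind. The 250 bases before an annotated start are shown from RefSeq on GRCm38.p6, with the motif in capitals. For Spp1 this is 1 of 2 annotated starts. The Bglap stretch is chr3:88384467-88384716 on the minus strand and the Spp1 stretch is chr5:104434861-104435110 on the plus strand.
Bglap: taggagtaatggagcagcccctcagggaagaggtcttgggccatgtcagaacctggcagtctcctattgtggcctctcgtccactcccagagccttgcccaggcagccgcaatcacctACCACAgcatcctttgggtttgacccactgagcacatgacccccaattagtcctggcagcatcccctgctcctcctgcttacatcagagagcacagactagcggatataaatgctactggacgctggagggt
Spp1: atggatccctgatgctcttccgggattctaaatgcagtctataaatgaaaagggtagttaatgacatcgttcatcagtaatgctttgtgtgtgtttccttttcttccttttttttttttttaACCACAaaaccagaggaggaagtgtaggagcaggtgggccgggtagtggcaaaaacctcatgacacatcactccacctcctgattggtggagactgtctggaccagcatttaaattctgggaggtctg
The motif began at -132 relative to the start in Bglap and at -128 in Spp1. Of the 9 genes, 7 had a promoter in the table, in 10 windows, and 4 genes held the motif in a window: Runx2, Bglap, Spp1 and Dmp1. Counted by window, 4 of the 10 held it. The other start of Spp1 and the other start of Dmp1 had 0 matches. Of all 32851 windows of this length, 14.0% held it. A match describes these letters and is not a measured site.

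Of the 9 genes, 4 passed the filter on low counts and were tested (Runx2, Alpl, Phex and Spp1) and 5 did not (Sp7, Dlx5, Bglap, Ibsp and Dmp1). Each of the tested genes had at least 29 counts in each library. Levels of different genes are compared here in RPKM, the authors' read counts normalised for gene length and library depth. Spp1 was at 91.4 to 177 RPKM, Runx2 at 3.43 to 4.42, Alpl at 0.382 to 3.26 and Phex at 0.699 to 2.47. Within a library Spp1 exceeded Runx2 in RPKM by 23.1-fold to 48.7-fold. The other 5 reached at most 0.418 RPKM, in Bglap. The order of Alpl and Phex depended on the line. Alpl over Phex, in RPKM, was 0.336 and 0.351 in the parental libraries and 0.204 and 0.373 in T567A. It was above 1 in the other lines: empty vector gave 1.54 and 2.02, wild type 1.34 and 1.45, and T567D 2.91 and 3.35.

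**Figure D1:**
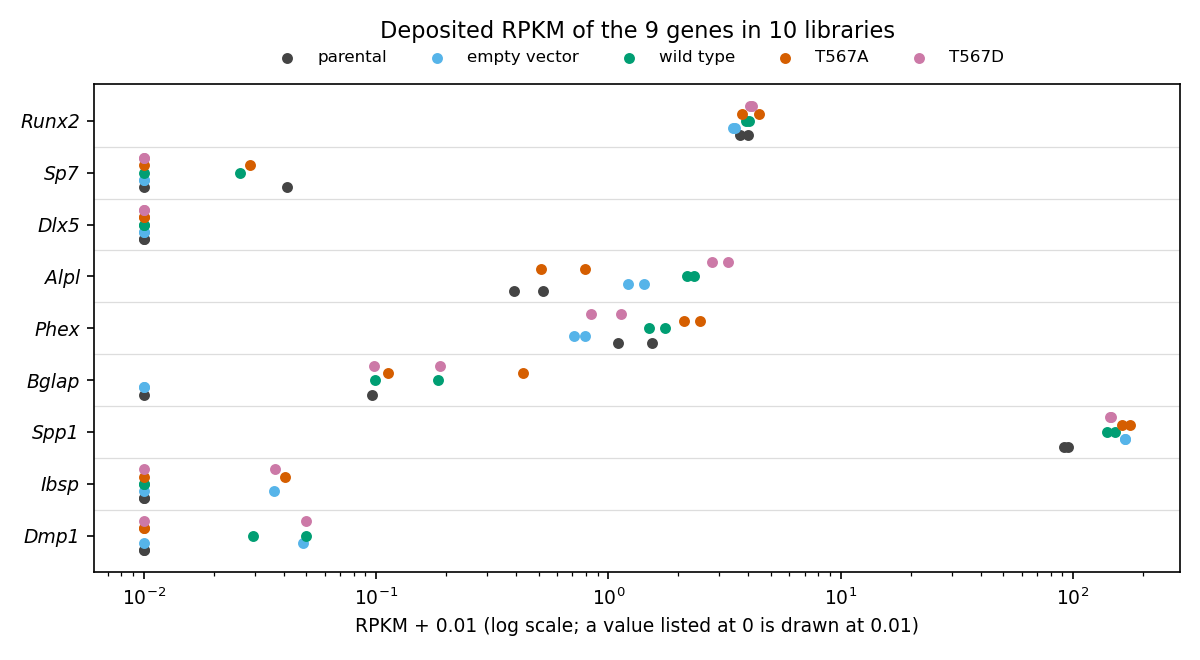
Deposited RPKM of the 9 genes in the 10 libraries, on a log axis with 0.01 added, coloured by line. Spp1 lies between 91.4 and 177 RPKM, Runx2, Alpl and Phex lie between 0.382 and 4.42, and Sp7, Dlx5, Bglap, Ibsp and Dmp1 stay at or below 0.418.

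Among the transcription factors, Runx2 was present in every library, and Sp7 and Dlx5 had at most 2 counts in any. Runx2 (chromosome 17, 44495987 to 44814797, minus strand, GRCm38) was at 35.7 and 38.4 CPM in the parental libraries. Empty vector gave 32.3 and 32.9, wild type 36.6 and 37.8, T567A 42.6 and 35.5, and T567D 38.6 and 38.2. The empty-vector libraries were the lowest, while the T567A libraries spanned the range of the other 3 lines. How many of all tested genes set a line apart in this way was not counted, for Runx2 or for the genes below. No such order is therefore read as particular to them. Over the 5 lines Runx2 did not pass the test (adjusted p = 0.075, edgeR's quasi-likelihood F test with Benjamini-Hochberg adjustment, as for each adjusted p below). It was called in 1 of 10 comparisons between lines, T567A minus empty vector, by a log2 fold change of 0.25 ± 0.087 (SE; adjusted p = 0.021). That call was lost without T567A replicate 2 (log2 fold change 0.14, adjusted p = 0.24), without empty-vector replicate 2 (adjusted p = 0.10) or without empty-vector replicate 3 (0.069). It was also lost by DESeq2 (adjusted p = 0.057) and by limma on RPKM with either pseudocount (0.075). In the other 9 comparisons its log2 fold change lay between -0.18 ± 0.087, in empty vector minus parental (adjusted p = 0.08), and 0.24 ± 0.087, in T567D minus empty vector (0.064). Without T567A replicate 2 these last 2 passed the test (adjusted p = 0.029 and 0.018), and without T567A replicate 3 likewise (0.028 and 0.017). Counts per gene do not separate the transcripts from its 2 known promoters. Exons of Runx2os1, an antisense RNA with 10 to 32 counts per library, share 519 of the 8837 exonic bases of Runx2, and whether counting used the strand is not given in the sources used here.

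Sp7 (chromosome 15, 102356606 to 102367182, minus strand), which acts downstream of Runx2 and is needed for osteoblast formation, had 2 and 0 counts in the parental libraries. Wild type gave 0 and 1, T567A gave 1 and 0, and each empty-vector and T567D library gave 0. Dlx5 (chromosome 6, 6877805 to 6882085, minus strand) had 0 counts in all 10 libraries, and so had its neighbour and paralog Dlx6. A count of 0 allows up to 3 counts in a library, which is 0.165 to 0.204 CPM on library totals without the TMM adjustment, and this limit covers counting error only. At this depth no difference between lines was detectable for Sp7 or Dlx5.

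Of 14 other factors of the lineage, 11 were tested and 3 had at most 3 counts in every library. Between empty vector and parental 3 were higher, 5 lower and 3 not called, with a median log2 fold change of -0.06 against 0.00 over all tested genes. The share of all 12595 tested genes called in that comparison was 54.6%. Without parental replicate 1 the number called fell from 8 to 4. Runx3, a paralog of Runx2, was at 57.5 ± 2.2 CPM (mean ± SD, n = 2, as below) in parental cells. Line means for empty vector, wild type, T567A and then T567D were 22.2 ± 1.5, 21.2 ± 0.93, 14.1 ± 0.43 and 29.1 ± 0.94. It fell between parental and empty vector by 1.37 on the log2 scale (adjusted p = 6.3e-12). Runx1, the third paralog, was at 42.4 ± 0.49 CPM in parental cells. Line means for empty vector, wild type, T567A and then T567D were 52.1 ± 4.4, 54.1 ± 6.9, 38.9 ± 1.1 and 56.1 ± 4.1. Of the 3 Runx genes Runx2 thus had the narrowest spread of line means. Atf4, which encodes a factor of late osteoblasts and of the amino acid response, was highest in T567A, at 573 ± 33 CPM against 380 ± 7.7 in wild type (log2 fold change 0.59, adjusted p = 6.4e-08). Snai2, a mesenchymal repressor gene, was at 29.7 ± 1.7 CPM in T567A and 13.4 ± 0.85 in T567D (log2 fold change 1.14, adjusted p = 1.2e-08).

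Alpl had the widest differences between lines among the 4 tested members. Its product hydrolyses pyrophosphate, an inhibitor of mineral growth, and is a standard marker of the osteoblast. Alpl (chromosome 4, 137741733 to 137796384, minus strand) was at 2.27 and 1.69 CPM in the parental libraries. Empty vector gave 5.2 and 6.07, wild type 9.95 and 9.25, T567A 2.21 and 3.4, and T567D 13.9 and 11.9. The T567D and wild-type libraries were the highest and the parental and T567A libraries the lowest. In rising order the lines were parental, T567A, empty vector, wild type and T567D, and the neighbours that did not pass the test were T567A and parental (0.53 ± 0.25, adjusted p = 0.071) and T567D and wild type (0.43 ± 0.14, adjusted p = 0.18).

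Alpl rose 2.84-fold from parental to empty vector (log2 fold change 1.51 ± 0.21, adjusted p = 4.2e-06), 4.84-fold to wild type (2.27 ± 0.20, 2.7e-09) and 6.51-fold to T567D (2.70 ± 0.19, 8.8e-11). These 3 comparisons share the parental libraries. Against wild type, T567A was lower in Alpl by a log2 fold change of -1.75 ± 0.18 (adjusted p = 1.9e-07), and it was also lower than empty vector (-0.98 ± 0.20, 0.00044). T567A lay 4.52-fold below T567D (-2.18 ± 0.18, adjusted p = 3.1e-09). Wild type exceeded empty vector by 0.77 ± 0.16 (adjusted p = 0.0023), which no longer passed when empty-vector replicate 2 was left out (0.66, adjusted p = 0.052). The 2 T567A libraries had 32 and 61 Alpl counts, and without T567A replicate 2 the difference from parental passed the test (0.78, adjusted p = 0.014).

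Phex encodes a membrane endopeptidase, lost in X-linked hypophosphatemia, which protects matrix proteins of the SIBLING family from release of mineral-inhibiting peptides. Phex (chromosome X, 157162075 to 157415312, minus strand) was at 10.5 and 7.53 CPM in the parental libraries. Empty vector gave 5.26 and 4.68, wild type 11.6 and 9.94, T567A 16.9 and 14.2, and T567D 7.45 and 5.55. The T567A libraries were above all others, and the empty-vector libraries were below all others. In rising order the lines were empty vector, T567D, parental, wild type and T567A. Empty vector and T567D (0.39 ± 0.19, adjusted p = 0.18) and parental and wild type (0.25 ± 0.16, adjusted p = 0.19) were neighbours that did not pass the test, the latter passing without parental replicate 1 (0.52, adjusted p = 0.027).

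Phex fell from parental to empty vector by a log2 fold change of -0.86 ± 0.18 (adjusted p = 0.00053) and was higher in wild type than in empty vector by 1.11 ± 0.18 (0.00027). T567A exceeded empty vector 3.11-fold (1.64 ± 0.17, adjusted p = 2.1e-07) and T567D 2.38-fold (1.25 ± 0.16, 4.4e-06). T567A was also above wild type (0.52 ± 0.15, adjusted p = 0.009). That call was lost by limma on log2(RPKM + 0.1) (adjusted p = 0.065), and without wild-type replicate 3 (0.42) or T567A replicate 2 (0.40). T567D was below wild type by -0.72 ± 0.17 (adjusted p = 0.037). This last call was lost by DESeq2 (adjusted p = 0.084) and by limma on RPKM with either pseudocount (0.15 and 0.17). It was also lost without each of 5 libraries (-0.83 to -0.53), both wild-type libraries and T567D replicate 3 among them. T567D minus parental (-0.47 ± 0.17, adjusted p = 0.028) was likewise lost by DESeq2 (0.074) and by limma with either pseudocount (0.11 and 0.1). The same call was lost without parental replicate 1 (-0.21) and without T567D replicate 3 (-0.28).

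The T567A and T567D lines thus stood in opposite order in Alpl and Phex, Alpl higher in T567D and Phex higher in T567A. Of all tested genes, 44.1% were called between these 2 lines. Across the 10 libraries the Pearson correlation of log2 CPM between Alpl and Phex was -0.378, and it was 0.568 between Phex and Runx2 and 0.402 between Alpl and Spp1. These are descriptions over 5 lines of 2 libraries each.

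**Figure D2:**
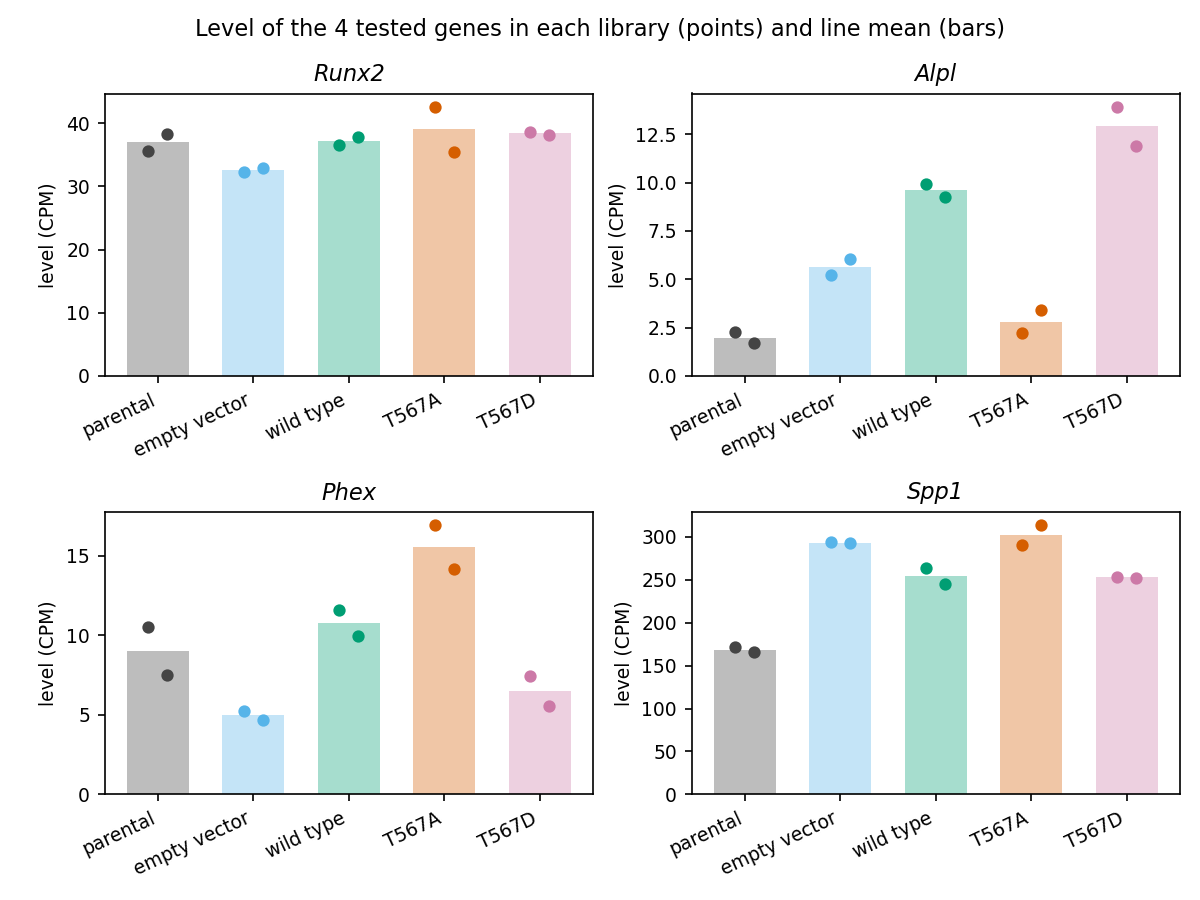
CPM of Runx2, Alpl, Phex and Spp1 by line, each point 1 library and each bar the mean of 2. Alpl is highest in T567D, at 13.9 and 11.9 CPM, Phex in T567A, at 16.9 and 14.2, and Spp1 is lowest in parental cells, while Runx2 stays between 32.3 and 42.6.

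Other mineralization enzymes and transporters, 12 tested of a list of 13, changed in both directions. Between empty vector and parental 5 were higher, 4 lower and 3 not called (median 0.04). Between T567A and wild type 5 were higher, 3 lower and 4 not called (median 0.17, against 0.00 over all tested genes), where 39.6% of all tested genes were called. Without wild-type replicate 3 the latter count fell from 8 to 5. Smpd3, whose sphingomyelinase is needed for normal bone mineral, fell from 52.2 ± 3.2 CPM in parental cells to 3.98 ± 0.51 in empty vector (log2 fold change -3.71, adjusted p = 2.7e-16), and wild type, T567A and T567D had 8.63 ± 0.97, 16.5 ± 0.85 and 7.87 ± 0.60. Ank, which encodes a membrane protein for pyrophosphate export, was at 97.4 ± 2.4 CPM in parental cells. Line means for empty vector, wild type, T567A and then T567D were 76.3 ± 2.9, 92.6 ± 2.6, 59 ± 0.98 and 101 ± 2.4. Ank was thus lowest in the line with the second-lowest Alpl, and T567A minus T567D in Ank was -0.77 ± 0.066 (adjusted p = 6.6e-09). The phosphate transporter gene Slc20a2 rose from parental to empty vector by 0.42 (adjusted p = 1.6e-05), and Anxa5, an annexin gene of matrix vesicles, by 0.62 (1.2e-08).

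Of Spp1, Ibsp, Dmp1 and Bglap, the matrix protein genes among the 9, only Spp1 had more than 5 counts in a library. Osteopontin binds mineral and integrins and is made by many tumour cells as well as by bone. Spp1 (chromosome 5, 104435118 to 104441050, plus strand) was at 171.5 and 165.3 CPM in the parental libraries. Empty vector gave 293.5 and 293.2, wild type 263.4 and 245.2, T567A 290.5 and 313.3, and T567D 253.6 and 251.9. The parental libraries were below all 8 derived libraries, and wild type and T567D overlapped each other, as did empty vector and T567A. Gm42793, which shares exonic bases with Spp1, had 0 counts.

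Spp1 rose from parental 1.74-fold to empty vector (log2 fold change 0.80 ± 0.061, adjusted p = 3.8e-10), 1.51-fold to wild type (0.59 ± 0.062, 4.4e-08) and 1.79-fold to T567A (0.84 ± 0.062, 1.4e-10). In T567D the log2 fold change from parental was 0.59 ± 0.062 (adjusted p = 6.1e-08). All 4 comparisons share the parental libraries. Differences among derived lines were smaller. T567A exceeded wild type by 0.25 ± 0.061 (adjusted p = 0.0026), lost without wild-type replicate 3 (0.20, adjusted p = 0.065), and T567D by 0.26 ± 0.061 (0.0017). Wild type (-0.21 ± 0.060, adjusted p = 0.023) and T567D (-0.21 ± 0.060, 0.017) were below empty vector. The former was lost when any 1 of the 4 empty-vector and wild-type libraries was left out (adjusted p = 0.053 to 0.25), and the latter when any 1 of the 4 empty-vector and T567D libraries was (0.071 to 0.11). T567D and wild type differed by -0.01 ± 0.061 (adjusted p = 0.98) and T567A and empty vector by 0.04 ± 0.060 (0.60).

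The other SIBLING genes next to Spp1 were nearly silent. From the start of Dspp to the end of Spp1 the cluster of 5 genes spans 270 kb on chromosome 5. Ibsp (104299171 to 104311469), whose product nucleates mineral, had 1 count in each of empty-vector replicate 3, T567A replicate 2 and T567D replicate 3 and 0 in the other 7 libraries. Dmp1 (104202613 to 104214102), an osteocyte gene, had 2 counts in empty-vector replicate 2, 2 and 1 in the wild-type libraries, 2 in T567D replicate 3 and 0 in the other 6. Mepe had 1 count in all and Dspp 0, against 43404 for Spp1 over the 10 libraries. The Mepe end lies 96.5 kb from the Spp1 start.

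**Figure D3:**
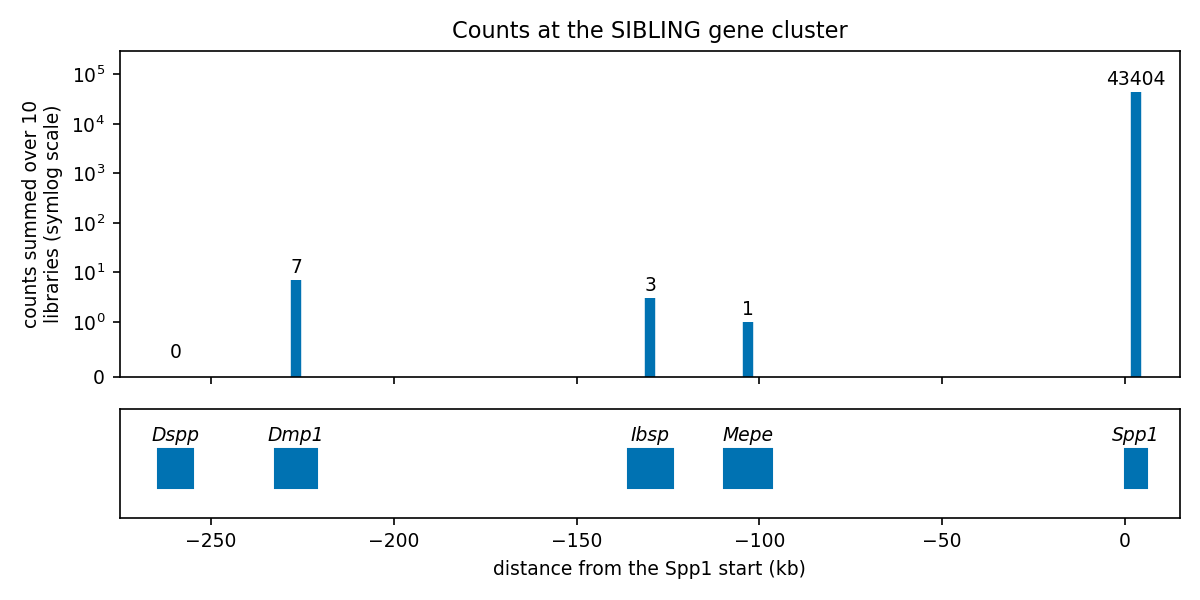
Counts summed over the 10 libraries for the 5 SIBLING genes (top, symlog axis) above their places relative to the Spp1 start in kb (bottom). Spp1 has 43404 counts, and Dmp1, Ibsp, Mepe and Dspp have 7, 3, 1 and 0.

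Bglap (chromosome 3, 88383501 to 88384464, minus strand), the osteocalcin gene, had 0 and 1 counts in the parental libraries. Empty vector gave 0 and 0, wild type 1 and 2, T567A 1 and 5, and T567D 1 and 2. Of the 50-base stretches of its transcripts, 51.3% also occur in those of Bglap2 and 19.3% in those of Bglap3, so the counts of single copies are uncertain. The 3 copies together had between 1 and 10 counts in a library and 59 in all 10. When the filter on low counts was left out, the 4 untested members with any count gave 44 tests, of which 0 passed at an adjusted p under 0.05 by edgeR and 1 at an unadjusted p under 0.05 (lowest adjusted p = 0.072, for Bglap).

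By comparison, the members called among the 4 tested were as follows, each beside the share of all tested genes called. Over the 5 lines 3 were called (Alpl, Phex and Spp1), beside 78% of all genes. The share of all genes is given here as higher and lower in the first line. In empty vector minus parental 2 members were higher and 1 lower (27.4% and 27.2% of all genes; 54.6% in either direction). In wild type minus parental 2 were higher and 0 lower (27.7% and 28.5%; 56.2%), and in T567A minus parental also 2 and 0 (31.4% and 30.7%; 62.1%). In T567D minus parental 2 were higher and 1 lower (27.1% and 28.2%; 55.4%). Among derived lines, wild type minus empty vector had 2 higher and 1 lower (8.25% and 7.36%, in all 15.6%). T567A minus empty vector had 2 and 1 (23.7% and 22.7%, in all 46.4%), and T567D minus empty vector 1 and 1 (9.43% and 8.34%, in all 17.8%). T567A minus wild type had 2 higher and 1 lower (20.4% and 19.1%, in all 39.6%). T567D minus wild type had 0 higher and 1 lower, Phex (0.818% and 0.524%, in all 1.34%). T567A minus T567D had 2 higher and 1 lower (22.5% and 21.6%, in all 44.1%). Nothing particular to the 4 tested genes is read from these counts. Alpl, Phex and Spp1 were each called in 8 of the 10 comparisons. Of the members, Phex alone was called between T567D and wild type.

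**Figure D4:**
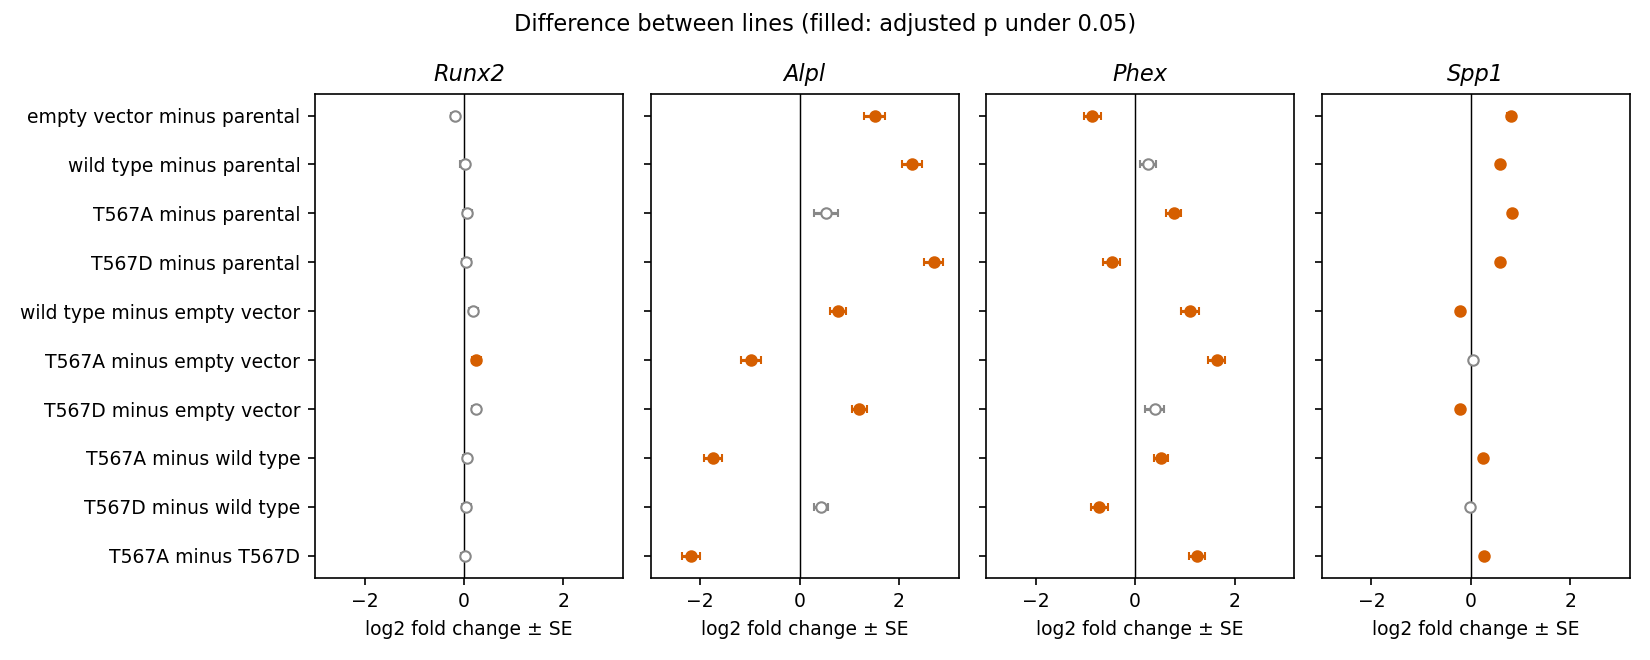
Log2 fold change (first line minus second) with its standard error for the 4 tested genes in the 10 comparisons, filled where the adjusted p was under 0.05. Alpl spans -2.18 to 2.70 and Phex -0.86 to 1.64, while Runx2 stays between -0.18 and 0.25.

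Of 17 further bone matrix genes, 12 were tested. Between empty vector and parental 4 were higher, 8 lower and 0 not called, with a median of -0.67 against 0.00 for all tested genes, of which 27.4% were higher and 27.2% lower. Col1a1, the main collagen chain gene of bone, was at 1820 ± 16 CPM in parental cells. Line means for empty vector, wild type, T567A and then T567D were 324 ± 4.7, 259 ± 18, 603 ± 7.9 and 735 ± 84. Spp1 and Col1a1 thus stood in opposite order between parental cells and each derived line. Between T567D and empty vector 9 matrix genes were higher, 0 lower and 3 not called, with a median of 1.09 against -0.01 for all tested genes, of which 9.43% were higher and 8.34% lower. Between T567D and wild type 4 were higher (Fn1, Dcn, Col1a1 and Bgn; Dcn is named after its value was seen), 0 were lower and 8 were not called, where 1.34% of all tested genes were called. The latter count was 2 by limma on RPKM and without either wild-type library. Bgn, the gene of the proteoglycan biglycan, was at 1490 ± 26 CPM in parental cells. Line means for empty vector, wild type, T567A and then T567D were 806 ± 4, 841 ± 23, 672 ± 61 and 1050 ± 99. Thbs1, which encodes thrombospondin-1, was at 1620 ± 30 CPM in T567A and 665 ± 0.95 in wild type (log2 fold change 1.28, adjusted p = 1.4e-12). Fn1, the fibronectin gene, went the other way, at 50.6 ± 1 CPM in T567A and 168 ± 7.4 in wild type (-1.73, adjusted p = 8.4e-10).

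Of 26 genes of BMP and Wnt input, signals that induce Runx2, Sp7 and Dlx5 in bone, 18 were tested. The list also holds inhibitors such as Smad6, so its counts of higher and lower genes do not give a direction of the signal. Between empty vector and parental 6 were higher, 5 lower and 7 not called (median 0.12), where 54.6% of all tested genes were called. Between T567A and T567D 4 were higher, 7 lower and 7 not called (median -0.09), where 44.1% of all tested genes were called. Bmp2, a ligand that induces osteoblasts, was at 0.903 ± 0.044 CPM in parental cells. Line means for empty vector, wild type, T567A and then T567D were 11.2 ± 0.79, 24.1 ± 2, 47.6 ± 4.3 and 19.2 ± 1.2. Empty vector exceeded parental 12.3-fold (log2 fold change 3.62 ± 0.20, adjusted p = 1.8e-12) and higher in T567A than in T567D by 1.31 (4.9e-10). Bmp4, a related ligand, was lower in derived lines, at 247 ± 15 CPM in parental cells and 129 ± 1.1 in empty vector (-0.93, adjusted p = 3.4e-11). Smad6, an inhibitor of BMP signalling, fell to 17.7 ± 1.5 CPM in T567A against 25.2 ± 1.3 in wild type (-0.50, adjusted p = 0.00031). The Wnt co-receptor gene Lrp5 was at 53 ± 1.1 CPM in parental cells, 16.8 ± 0.78 in empty vector and 30.8 ± 1.2 in wild type. Bmp2 and Bmp4 thus went in opposite directions between parental cells and the derived lines. Dlx5 and Sp7, at 0 to 2 counts, were too low to show a difference. Any link of them to either ligand was not tested.

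Of 9 further SIBLING and osteocyte genes, 3 were tested, and each of them was called between empty vector and parental, where 54.6% of all tested genes were called. Tnfrsf11b, the gene of osteoprotegerin, which blocks osteoclast formation, was at 0.262 ± 0.04 CPM in parental cells and 2.11 ± 0.21 in empty vector. Wild type, T567A and T567D had 3.78 ± 0.17, 4.07 ± 0.88 and 3.78 ± 0.031. Its log2 fold change from parental to empty vector was 2.98 ± 0.38 (adjusted p = 9.5e-07). The parental level was near the 0.169 and 0.171 CPM that a count of 0 allows in those libraries. Tnfrsf11b passed the filter on low counts only through the derived lines, so the size of this difference is not read. Csf1, a growth factor of osteoclast precursors, fell from 2060 ± 26 CPM to 860 ± 3.1 (-1.26, adjusted p = 6.2e-14). Pdpn, an early osteocyte gene, was at 48.8 ± 2.8 CPM in parental cells and 62.8 ± 3.8 in empty vector, and at 26 ± 0.81 in T567A against 58.5 ± 0.29 in wild type (-1.17, adjusted p = 2.5e-10).

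**Figure D5:**
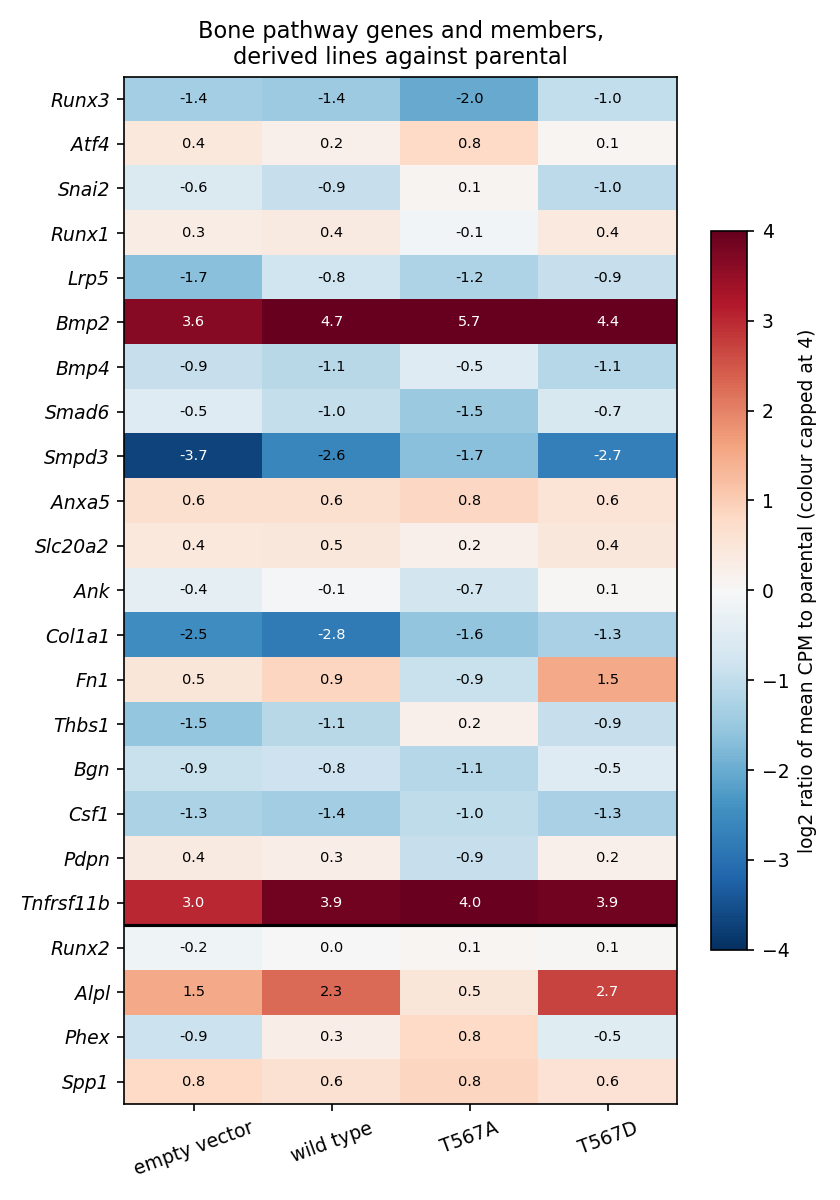
Log2 ratio of the mean CPM in each derived line to that in parental cells, for the named bone pathway genes (above the line) and the 4 tested members (below it), with colour capped at 4. Bmp2 and Tnfrsf11b are higher and Smpd3 and Col1a1 lower in each derived line, and Runx2 is near 0. The parental mean of Tnfrsf11b, 0.262 CPM, is near the level that a count of 0 allows.

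The genes whose log2 CPM followed each tested member most closely over the 10 libraries, by Pearson correlation, were Btg3 (0.993), Dhx35 (0.991) and Golph3l (0.989) for Spp1, Os9 (0.981), Acap3 (0.979) and Hdac5 (0.975) for Alpl, Tlk2 (0.964), Scrn3 (0.958) and Pdp1 (0.956) for Phex and Nfat5 (0.937), Kat6a (0.926) and Zfp287 (0.92) for Runx2. None of these 12 is a member or on a list used here. The libraries share lines, and each correlation is a description over 5 line means in pairs.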

How the data were processed

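The authors deposited, for each of 10 poly-A libraries (dUTP strand-marked, DNBSEQ), a table of raw counts and a table of RPKM values over 41743 gene names. The submitters' processing notes name GRCm38. The sources used here do not give the aligner, counting tool, annotation or strand setting. Groups and replicate numbers came from the sample titles.

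The test was edgeR 4.0.16 (R 4.3.3) on the counts. The filterByExpr rule, with minimum count 10 and minimum total 15, passed 12595 genes. TMM-scaled libraries were fitted in 1 robust quasi-likelihood model of 5 line means (5 residual degrees of freedom). Adjusted p-values are Benjamini-Hochberg over all genes of a comparison, called under 0.05, two-sided. Differences are the first line minus the second. Fold changes with edgeR carry its default prior count. Alternatives were DESeq2 1.42.0, scaling by RLE or by the upper quartile, a filter of 5 CPM in 2 libraries or none, a replicate block, only the 2 lines compared, an adjusted p under 0.01, limma 3.58.1 on log2(RPKM + 1) and log2(RPKM + 0.1), and each library left out. Positions and exons come from GENCODE M21 (GRCm38) by symbol, and promoters from a RefSeq table.

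The members and lists were chosen with earlier results of these data known. All 9 members were named, and in each pathway list up to 4 tested genes called in the most comparisons, ties going to the higher mean CPM. Genes most alike were the top 3 by correlation of log2 CPM (prior count 2), without pseudogenes and unnamed models. Figures were drawn with matplotlib 3.10.9.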

Additional observations from a re-analysis of the deposited data

Results flagged for a closer look

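The effects of T567A and T567D, each measured from wild type, differed in 3 of the 4 tested genes by the direct test of T567A minus T567D. The difference was -2.18 in Alpl (adjusted p = 3.1e-09, edgeR), 1.25 in Phex (4.4e-06) and 0.26 in Spp1 (0.0017), on the log2 scale. The wild-type mean cancels in T567A minus T567D, and 44.1% of all tested genes passed that test. Against wild type, T567D did not pass in Alpl (adjusted p = 0.18) or Spp1 (0.98), and it passed in Phex (0.037). That Phex call was lost by DESeq2 (adjusted p = 0.084) and by limma on RPKM with either pseudocount (0.15 and 0.17).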

How the results depend on the processing

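Of 40 member comparisons, 21 kept their direction and their side of the threshold under all 20 settings, and of 800 refits of single members 733 did, 41 lost a call, 13 gained one and 13 changed sign, all 13 in differences that had not passed the test. The cause was not tested where a call changed. The number of members called in T567D minus wild type, 1, was 0 by DESeq2, by limma with either pseudocount and at an adjusted p under 0.01, and 0 to 1 without a library. In T567D minus empty vector, 2, it was 1 at an adjusted p under 0.01 and 1 to 3 without a library, in wild type minus empty vector 1 to 3 and in T567A minus wild type 1 to 3. The sign changed in Runx2 for T567A minus T567D (-0.01 with upper-quartile scaling, -0.01 and -0.01 by limma on RPKM, and -0.11 to 0.15 without a library), and without a library for wild type minus parental (-0.04 to 0.06), T567A minus parental (-0.05 to 0.20) and T567A minus wild type (-0.06 to 0.19), and in Spp1 for T567A minus empty vector (-0.01 to 0.11) and T567D minus wild type (-0.06 to 0.04). With 1 library left in a line, that library is assumed to vary like the others. With the replicate number as a block, 4 members were called in empty vector minus parental (3 without the block), 3 in T567A minus parental (2) and 2 in wild type minus empty vector (3), where Alpl (0.49, adjusted p = 0.11) was the call lost, and the Runx2 differences turned to -0.01 in T567A minus parental, -0.02 in T567A minus wild type and -0.06 in T567A minus T567D. Deviations of same-numbered libraries correlated by -0.0995 to 0.0705, so the numbers were not read as pairs. The count over all genes moved over 1.5 times in wild type minus empty vector (1966, range 840 to 3029), T567D minus empty vector (2239, 991 to 2818) and T567D minus wild type (169, 46 to 311), and in no other comparison between 2 lines. For named pathway genes, added after the data were seen, only comparisons that had passed the test were refitted, 135 in all. Of their 2694 refits, 69 lost a call and 0 changed sign. These genes were named for being called most often, so sign changes were unlikely beforehand. The 0 is therefore not set against the sign changes of the members. Of 30 list counts, 15 moved over 1.5 times under a setting, among them BMP and Wnt genes in T567A minus T567D, 7 with the block or at an adjusted p under 0.01. Depth limits Sp7, Dlx5, Bglap, Ibsp and Dmp1, at 0 to 5 counts.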

Other observations

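The chains of type I collagen, named in the osteoblast markers, did not keep 1 ratio. Col1a1 over Col1a2, in RPKM, was 0.968 and 0.981 in the parental libraries. Empty vector gave 0.207 and 0.214, wild type 0.171 and 0.158, T567A 0.354 and 0.369, and T567D 0.412 and 0.452. Col1a2 itself had line means of 2910 to 3530 CPM.

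Among markers of other cell types a few genes reached 1 CPM in some lines and not in others. Ctsk, a protease gene of osteoclasts that mesenchymal cells can also express, was at 8.76 CPM in parental cells and at 0.284 to 0.576 CPM in the derived lines (line means). Fabp4, an adipocyte gene, was at 6.97 CPM in T567D and 0.962 in T567A. The chondrocyte factor gene Sox9 was at 0.291 CPM in parental cells and 3.37 in wild type. These are values with no test.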
